A study of Mus musculus with 48 samples.

Results

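The 8 genes described here are genes whose transcripts are known to follow temperature: the cold-inducible RNA-binding protein genes Cirbp and Rbm3, and the heat shock genes Hspa1a, Hspa8, Hsph1, Hspb1, Dnajb1 and Hsp90aa1. Each gene was read from the probe set that carried its symbol alone and had the highest mean over all 48 arrays. This gave a value for 7 of the 8 genes, among 18194 genes measured in the same way. Rbm3 has no value, because both of its probe sets (2 of 2) also carry the symbol of a pseudogene, Rbm3-ps. The tissue was labelled as the pars tuberalis, the thin layer of pituitary around the stalk, and came from male CBA/N mice. Under short days the mice had 8 h of light and were 8 weeks old, with lights on at Zeitgeber time (ZT) 0 and off at ZT8. Under long days they had 16 h of light for 2 weeks, with lights off at ZT16, and were also 8 weeks old. The remaining conditions were sampled on the day the light was first lengthened, following 3 weeks of short days, at an age of 6 weeks. In advance, the light came on early, at ZT16 of the short-day cycle, and went off at ZT8. In delay, the light stayed on until ZT16. Each condition was sampled at 6 times, from ZT0 to ZT20 in steps of 4 h, with 2 arrays per time, and each array held RNA pooled from 25 mice. The whole procedure was carried out again to give the second array, so the p-values below measure the spread between such pools.

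Cirbp and Rbm3 encode RNA-binding proteins that are induced by mild cooling and lowered by warming, and in several tissues their transcripts follow the daily rhythm of body temperature. The heat shock genes respond in the opposite way: heat shock factor 1 binds repeats of the letters GAA and TTC in their promoters and raises their transcription when proteins unfold. In mice, which are active at night, body temperature is higher in the dark than in the light. The pars tuberalis itself is known for reading day length from melatonin and for releasing thyrotropin under long days. Body temperature was not among the values analysed here.

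The promoters of Hspa1a, its neighbouring copy Hspa1b, and Hspb1 are shown because the searched heat shock pairs lie in them and because Hspa1a and Hspa1b are so alike. The 250 bases before the start site are from RefSeq (GRCm38.p6). They cover chr17:34972157-34972406 (minus strand) for Hspa1a, chr17:34959239-34959488 (minus strand) for Hspa1b and chr5:135887669-135887918 (plus strand) for Hspb1. Capitals mark GAANNTTC, an abutting pair of heat shock repeats, and TCCCCGCC or its reverse complement GGCGGGGA, a sequence described as a mild cold-responsive element.
Hspa1a: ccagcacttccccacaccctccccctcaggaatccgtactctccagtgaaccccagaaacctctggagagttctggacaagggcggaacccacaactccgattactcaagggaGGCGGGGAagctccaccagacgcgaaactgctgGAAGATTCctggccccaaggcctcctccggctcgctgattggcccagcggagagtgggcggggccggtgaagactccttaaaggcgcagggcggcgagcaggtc
Hspa1b: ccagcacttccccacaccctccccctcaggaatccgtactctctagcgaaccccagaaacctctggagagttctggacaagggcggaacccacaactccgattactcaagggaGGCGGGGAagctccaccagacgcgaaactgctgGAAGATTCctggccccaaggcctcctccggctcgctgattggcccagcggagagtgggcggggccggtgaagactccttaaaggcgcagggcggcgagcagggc
Hspb1: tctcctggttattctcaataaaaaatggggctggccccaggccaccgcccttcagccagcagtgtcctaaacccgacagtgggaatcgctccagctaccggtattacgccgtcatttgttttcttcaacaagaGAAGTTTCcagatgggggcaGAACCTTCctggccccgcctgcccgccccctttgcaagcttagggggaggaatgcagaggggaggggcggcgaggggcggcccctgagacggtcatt
Hspa1a and Hspa1b differed at 3 of these 250 bases, and 10120 bases lie between the genes on chromosome 17. Both held GAAGATTC, from 104 to 97 bases before the start, and GGCGGGGA, from 137 to 130 bases before it. Hspb1 held GAAGTTTC from 117 to 110 bases and GAACCTTC from 97 to 90 bases before its start. Cirbp, whose first listed start site follows chr10:80167589-80167838 (plus strand), held TCCCCGCC from 247 to 240 bases before it, at the far edge of the window, and neither heat shock pair. Hsph1 held TTCTCGAA, from 33 to 26 bases before its first listed start site, which follows chr5:149636337-149636586 (minus strand). Before its second listed start site it held the same letters and CACGTG, the latter from 19 to 14 bases before it. The Cirbp and Hsph1 windows lie within or across the RefSeq record of the gene and are not printed in full. Neither listed start site of Dnajb1 had any of the motifs searched, which were TTCNNGAA, GAANNTTC, CACGTG, TGACGTCA and TCCCCGCC on both strands. Of the 8 genes, 5 had a promoter in the table used, and Hspa8, Hsp90aa1 and Rbm3 were not among them. Among 32851 promoters of this length, 7.17% held TTCNNGAA, 6.69% held GAANNTTC, 12.8% held either, 6.02% held the E-box CACGTG, 1.55% held the cyclic AMP response element TGACGTCA and 4.64% held TCCCCGCC. A match is a description of the letters in the window and nothing more.

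All levels below are log2 values as deposited, and a difference of 1 is a change of 2-fold. The median of the arrays lay between 6.98 and 7.03 in all 48. Tshb, the thyrotropin beta subunit gene, had day means of 10.54 under short days, 14.09 under long days, 12.51 in advance and 12.01 in delay. Cga, which encodes the shared hormone alpha subunit, lay between 13.2 and 14.4 on every array. Both hormone genes were thus present throughout. The growth hormone gene Gh or the prolactin gene Prl, which mark the neighbouring pars distalis, exceeded 10 on 6 arrays: 1 under short days, 3 under long days, 1 in advance and 1 in delay. The difference between the 3′ and 5′ actin control probes, a sign of RNA integrity, was 1.90 ± 0.12 under short days, 1.65 ± 0.12 under long days, 1.69 ± 0.09 in advance and 1.85 ± 0.13 in delay (SD, n = 12). Of 5 measured blood cell markers, 4 lay below the first quartile of the arrays in every condition. Markers of brain cell types were bright as well. Under short days their means were 10.95 for tanycytes, 10.73 for astrocytes, 10.55 for hypothalamic neurons and 10.14 for oligodendrocytes. The thyrotroph mean was 10.25. The samples thus held more than the labelled tissue, and the cells behind a level cannot be told apart.

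Cirbp was highest in the light in each condition and lowest in the dark or, under long days, at lights-on, and its whole course lay higher under long days. Under short days its 12 arrays ran from 8.06 through a median of 8.77 to 9.26, and under long days from 8.85 through 9.56 to 10.15. In advance they ran from 8.82 through 9.83 to 10.27, and in delay from 8.48 through 9.24 to 9.73. The short-day and long-day ranges overlap, but at each of the 6 times the long-day mean was the higher one. The day mean was 8.72 ± 0.38 under short days, 9.54 ± 0.39 under long days, 9.63 ± 0.48 in advance and 9.12 ± 0.45 in delay (SD, n = 12). Under long days Cirbp rose by 0.82 ± 0.09 (SE), or 1.77-fold, with limma's adjusted p = 2.47e-09. The difference by time ranged from 0.35 at ZT4 to 1.27 at ZT12. Cirbp was also higher than under short days on the first long day, by 0.91 in advance (adjusted p = 2.09e-10) and by 0.41 in delay (adjusted p = 2.76e-04), with age and the set of mice changing together with the light. The delay mean includes the arrays of ZT0, ZT4 and ZT8, taken to precede the added light, though the labels give no date of sampling. Cirbp was higher than under short days at each of these times, for example at 9.01 ± 0.13 against 8.60 ± 0.215 at ZT0 (SD, n = 2).

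The group means of Cirbp spanned most on the first long day, in mice of 6 rather than 8 weeks. The test for a different course from short days did not pass, in advance (limma's adjusted p = 0.683) or in delay (0.153). In advance both arrays at ZT4 read near the top, 10.27 and 10.25, and at ZT12 they read 9.09 and 8.82. In delay the arrays read 9.73 and 9.72 at ZT8, and 8.48 and 8.68 at ZT20. In both conditions the light-phase and dark-phase arrays named do not overlap. The range of the group means was 1.31 in advance, 2.48-fold, and 1.15 in delay, 2.22-fold, against 0.75 under short days and 0.89 under long days. The test for any variation over the 6 times passed in advance (limma's adjusted p = 6.22e-04) and in delay (adjusted p = 0.00331). Under short days it gave an adjusted p of 0.0891 and under long days 0.0883. A 24 h cosine, which spends fewer degrees of freedom, gave adjusted p-values of 0.0449 under short days and 0.0243 under long days, both past the threshold of 0.05, where 16.8% and 2.22% of all genes passed. It passed for Cirbp in advance (1.66e-04, against 3.04% of all genes) and in delay (2.83e-04, against 3.03%) as well. The 2 arrays of short-day ZT16 differed widely, at 8.85 and 8.06, and so did those of long-day ZT16, at 9.82 and 8.85. Without replicate 1 at short-day ZT16, F for variation under short days was 5.72, against 3.46 with all arrays. That fit rests at ZT16 on the low array alone, and without replicate 2 of ZT4 F was 2.07. Under long days F was 4.84 with all arrays, 8.95 without replicate 1 of ZT16 and 3.06 without replicate 2 of ZT8.

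**Figure D1:**
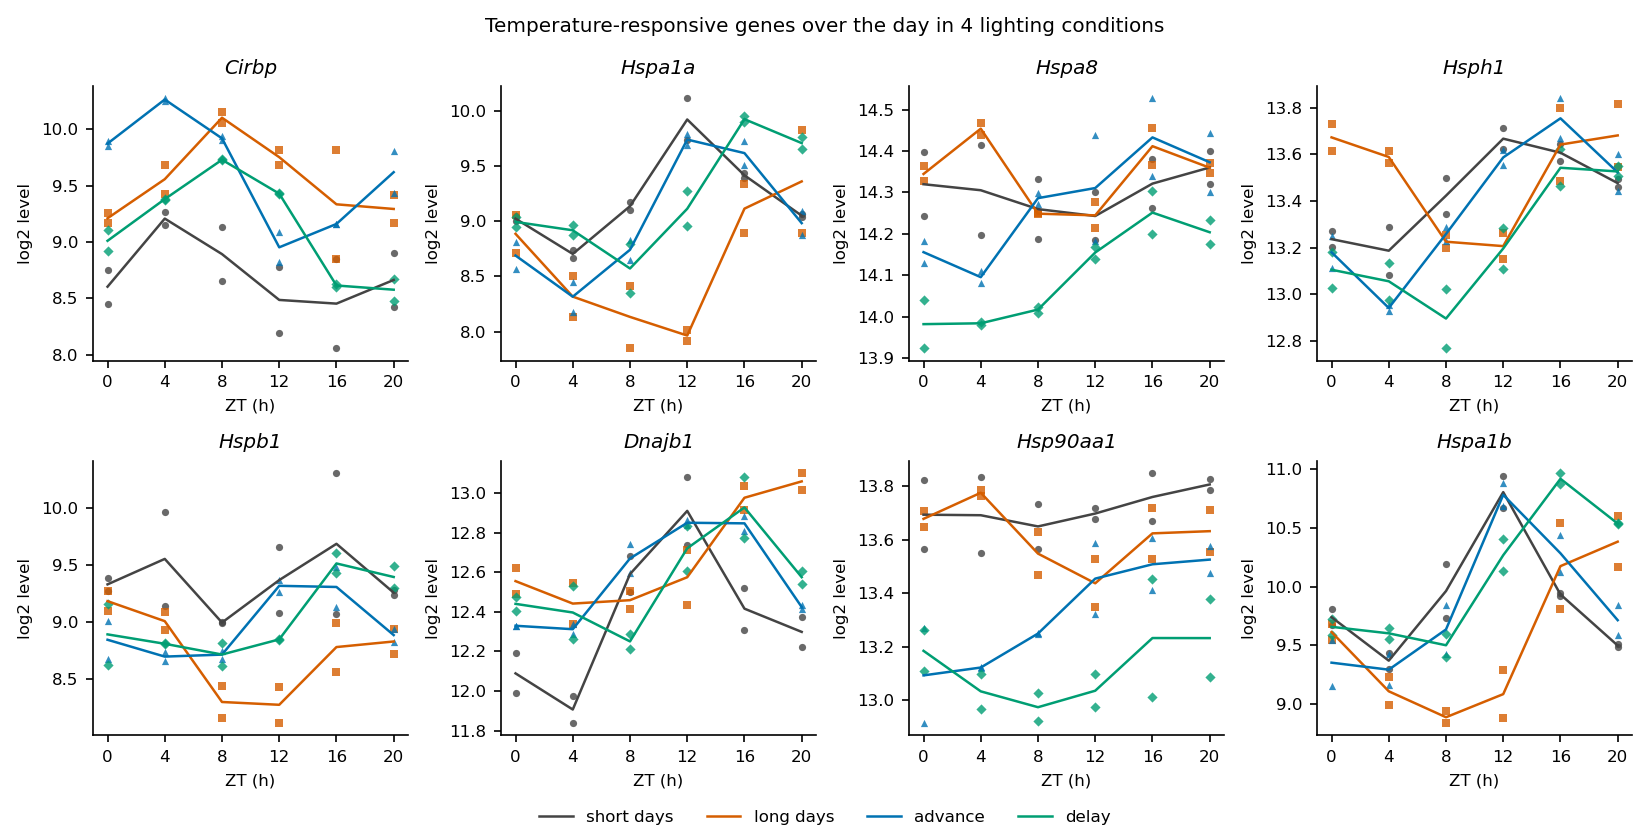
Levels of each gene on the log2 scale (vertical axes, which differ between panels) against ZT in hours; points are single arrays, lines join the means of the 2 arrays per time, and colours mark the 4 conditions. Cirbp is highest at ZT4 or ZT8 in every condition, while Hspa1a, Hspa1b and Dnajb1 are highest at ZT12 under short days and in advance, ZT16 in delay and ZT20 under long days.

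Hspa1a, which encodes the stress-inducible HSP70 chaperone, was highest in the dark or, in delay, at lights-off. Under short days its arrays ran from 8.67 through a median of 9.08 to 10.11, and the 2 highest, 9.73 and 10.11, were those of ZT12. Under long days they ran from 7.85 through 8.61 to 9.82. The lowest long-day mean was at ZT12, with arrays at 7.92 and 8.01, so the ZT12 arrays of the 2 photoperiods lie far apart. The highest long-day mean was at ZT20, where the arrays themselves differed, at 9.82 and 8.90. In advance the ZT12 arrays read 9.69 and 9.79 and those of ZT4 read 8.45 and 8.18. In delay the ZT16 arrays read 9.90 and 9.95 and those of ZT8 read 8.79 and 8.35. The range of the group means was 1.22 under short days (2.32-fold), 1.39 under long days (2.63-fold), 1.42 in advance (2.68-fold) and 1.35 in delay (2.55-fold). Over all genes the median range was 0.271, 0.207, 0.225 and 0.223 in the same order. Variation over the day passed in all 4 conditions, with limma's adjusted p of 0.0018 under short days, 2.04e-05 under long days, 1.45e-05 in advance and 2.09e-04 in delay.

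The day mean of Hspa1a was 9.21 ± 0.41 under short days and 8.63 ± 0.61 under long days (SD, n = 12). It fell by 0.58 ± 0.08 (SE) under long days, a 1.49-fold decrease, with limma's adjusted p = 3.21e-07, and was lower at 5 of 6 times. At ZT20 it was 0.31 above short days, and at ZT12 1.95 below. In advance the day mean was 9.01 ± 0.54 and in delay 9.20 ± 0.50 (SD, n = 12). The difference from short days was −0.19 in advance (adjusted p = 0.044) and −0.004 in delay (adjusted p = 0.975). The call in advance was lost in 16 of 24 fits that each left out 1 array, with adjusted p-values up to 0.107, and also after a repeated quantile normalization (0.152) and with the actin difference as a covariate (0.159). Hspa1b, the adjacent copy, moved alike over the day, with a range of group means of at least 1.42 in each condition, 2.67-fold, and variation that passed in all 4 conditions. Its correlation with Hspa1a over the 24 group means, with the mean of each condition taken off, was 0.954. Since the genes are nearly identical, the probe sets may share signal, and their values cannot be treated as separate measurements.

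Dnajb1, the J-domain cochaperone that delivers substrates to HSP70, had its highest mean in the same groups as Hspa1a. Under short days its arrays ran from 11.84 through 12.34 to 13.08, with those of ZT12 at 12.74 and 13.08 and those of ZT4 at 11.84 and 11.97. Under long days they ran from 12.34 through 12.58 to 13.10, with those of ZT20 at 13.10 and 13.02. The ZT20 arrays of short days, 12.37 and 12.22, lie below both of these. The range of the group means was 2.01-fold under short days, 1.53-fold under long days, 1.45-fold in advance and 1.60-fold in delay. Variation passed in each condition, with limma's adjusted p of 2.93e-06 under short days, 7.1e-04 under long days, 0.00116 in advance and 0.00346 in delay. The call in delay was lost, at 0.0528, without replicate 2 at ZT16. With the second, dimmer probe set variation passed under long days, and the adjusted p was 0.0822 under short days, 0.14 in advance and 0.32 in delay. The day mean was 12.37 ± 0.36 under short days and 12.68 ± 0.27 under long days (SD, n = 12). It rose by 0.31 ± 0.05 (SE), 1.24-fold, with limma's adjusted p = 1.18e-06, and was higher at 4 of 6 times. Against short days it was higher by 0.20 in advance (adjusted p = 3.79e-04) and by 0.18 in delay (adjusted p = 0.00137). The second Dnajb1 probe set, which was dimmer with a mean of 7.52, turned these day-mean differences round, to −0.53, −0.36 and −0.32. The direction of the Dnajb1 day mean thus depended on the probe set.

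Hsph1, which encodes the HSP110 exchange factor of HSP70, passed for variation over the day in every condition. Under short days its arrays ran from 13.08 through 13.48 to 13.71 and under long days from 13.15 through 13.55 to 13.82. In advance they ran from 12.93 through 13.37 to 13.84 and in delay from 12.77 through 13.16 to 13.62. The lowest mean fell at ZT4 under short days and in advance, at ZT8 in delay and at ZT12 under long days. The group means spanned 1.40-fold, 1.39-fold, 1.76-fold and 1.57-fold in the order short days, long days, advance and delay. Variation passed in all of them, with limma's adjusted p of 0.00563, 0.00184, 6.45e-06 and 2.09e-04. With the dimmer of its probe sets the delay value was 0.297 and the other 3 conditions passed. The long-day call was lost, at 0.0811, without the 6 arrays in which Gh or Prl exceeded 10. The day mean was 13.43 ± 0.20 under short days and 13.50 ± 0.24 under long days (SD, n = 12). This difference of 0.07 (95% interval −0.01 to 0.16) did not pass, at an adjusted p of 0.179. In delay Hsph1 fell by 0.21 against short days (adjusted p = 6.96e-05), a call lost after a repeated quantile normalization (−0.06, adjusted p = 0.218). Its second probe set had a mean of 10.87 and gave 0.50 for long minus short days and 0.11 for delay minus short days, so these day means also turned on the probe set.

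Hspb1, the small heat shock protein HSP27, was lower under long days at each of the 6 times. Its arrays ran from 8.99 through 9.25 to 10.30 under short days and from 8.12 through 8.83 to 9.27 under long days. The highest short-day array was replicate 2 of ZT16, and its partner read 9.07. The day mean was 9.36 ± 0.41 under short days, 8.73 ± 0.38 under long days, 8.96 ± 0.29 in advance and 9.03 ± 0.35 in delay (SD, n = 12). Hspb1 fell by 0.63 ± 0.10 (SE) under long days, a 1.55-fold decrease (limma's adjusted p = 2.01e-06), and its second probe set gave −0.64. It also fell by 0.40 in advance (adjusted p = 8.1e-04) and by 0.34 in delay (adjusted p = 0.00505) against short days, though the delay value reached 0.0584 without the 6 arrays with Gh or Prl above 10. With the brighter probe set, the F test for variation over the day passed in none of the 4 conditions, with adjusted p-values of 0.307 under short days, 0.0997 under long days, 0.364 in advance and 0.181 in delay. With the second probe set it passed under long days (0.0204) and in delay (0.0438), and the cosine passed for the brighter one under long days (0.0371). Without replicate 1 at short-day ZT16 the short-day value became 0.00486, and that fit rests at ZT16 on the high array alone. Mean levels of cell type markers were lower under long days for some lists and higher for others. Under short and long days they were 10.55 and 10.61 for hypothalamic neurons, 10.14 and 10.26 for oligodendrocytes and 10.25 and 11.36 for thyrotrophs. For astrocytes they were 10.73 and 10.66, for endothelial cells 8.335 and 8.198 and for meningeal fibroblasts 10.77 and 10.68. The mean level of 6 ependymal markers was 8.03 (range 7.77 to 8.29) under short days and 7.69 (7.50 to 7.78) under long days, and 3 of the 6 passed, all lower. That of 6 microglia and macrophage markers was 9.11 (range 8.80 to 9.38) and 8.90 (highest array 9.004), with 3 of the 6 passing, all lower. That of 7 tanycyte markers was 10.95 (10.72 to 11.21) and 10.78 (10.70 to 10.89), with 4 lower and 1 higher. Among all genes 46.7% passed this contrast, 29.1% lower and 17.6% higher. None of these markers lay below the first quartile, and their part in the Hspb1 result was not tested.

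Hspa8, the constitutive HSP70, and Hsp90aa1, the inducible cytosolic HSP90, had narrow daily ranges with their brightest probe sets and lower day means in delay than under short days. By mean level these probe sets lay near the top of the scale, at percentiles 99.9 and 99.4 of all genes. Hspa8 ran from 14.18 through 14.31 to 14.41 under short days, from 14.21 through 14.35 to 14.47 under long days, from 14.08 through 14.29 to 14.53 in advance and from 13.92 through 14.09 to 14.30 in delay. Its day mean fell by 0.20 in delay against short days (limma's adjusted p = 5.74e-06) and was lower at all 6 times, but after a repeated quantile normalization the difference was −0.01 (adjusted p = 0.694). Hsp90aa1 ran from 13.55 through 13.73 to 13.85 under short days, from 13.35 through 13.64 to 13.79 under long days, from 12.91 through 13.30 to 13.60 in advance and from 12.92 through 13.09 to 13.45 in delay. Every delay array thus lay below every short-day array. Hsp90aa1 fell by 0.60 ± 0.05 (SE) in delay, 1.52-fold (adjusted p = 3.72e-11), and by 0.39 in advance, 1.31-fold (adjusted p = 9.84e-08), and was lower at all 6 times in both. For long minus short days the difference was −0.10 (95% interval −0.21 to 0.005, adjusted p = 0.114); it passed after a repeated quantile normalization (−0.14, adjusted p = 0.00852) and with the actin difference as a covariate (−0.23, adjusted p = 0.00882). Of the other bright Hsp90aa1 probe sets, the one with a mean of 12.63 gave −0.52 for delay minus short days, and the second brightest, with a mean of 13.44, gave −0.12 and −0.02 for delay and advance minus short days. The mean level of 8 measured hypothalamic neuron markers was also lower in advance and delay than under short days. It was 10.55 (range 10.34 to 11.11) under short days, 10.61 (10.36 to 10.97) under long days, 10.12 (9.91 to 10.33) in advance and 10.21 (9.99 to 10.60) in delay, with none of the 8 below the first quartile. It was thus lowest in advance, whereas the Hsp90aa1 day mean was lowest in delay (13.11, against 13.325 in advance). Tanycyte, ependymal, astrocyte, oligodendrocyte and microglia marker means were lower in both as well, and thyrotroph, pars distalis, endothelial and fibroblast ones were higher. The part of these cell types in the Hsp90aa1 result was not tested. In pooled tissue fewer cells of a type and less RNA per cell cannot be told apart. With the brightest probe sets, neither gene passed the F test for variation over the day in any condition. The closest were Hspa8 in advance, at an adjusted p of 0.063, and Hsp90aa1 in advance, at 0.0722. The cosine test passed for both there, at 0.0119 and 0.00655, and for Hspa8 in delay, at 0.0187. Other probe sets did pass the F test. The second brightest of Hspa8 passed in advance (0.00627), the one with a mean of 12.51 under long days (0.0495), in advance (0.0148) and in delay (0.0197), and the second brightest of Hsp90aa1 in advance (0.0421).

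**Figure D2:**
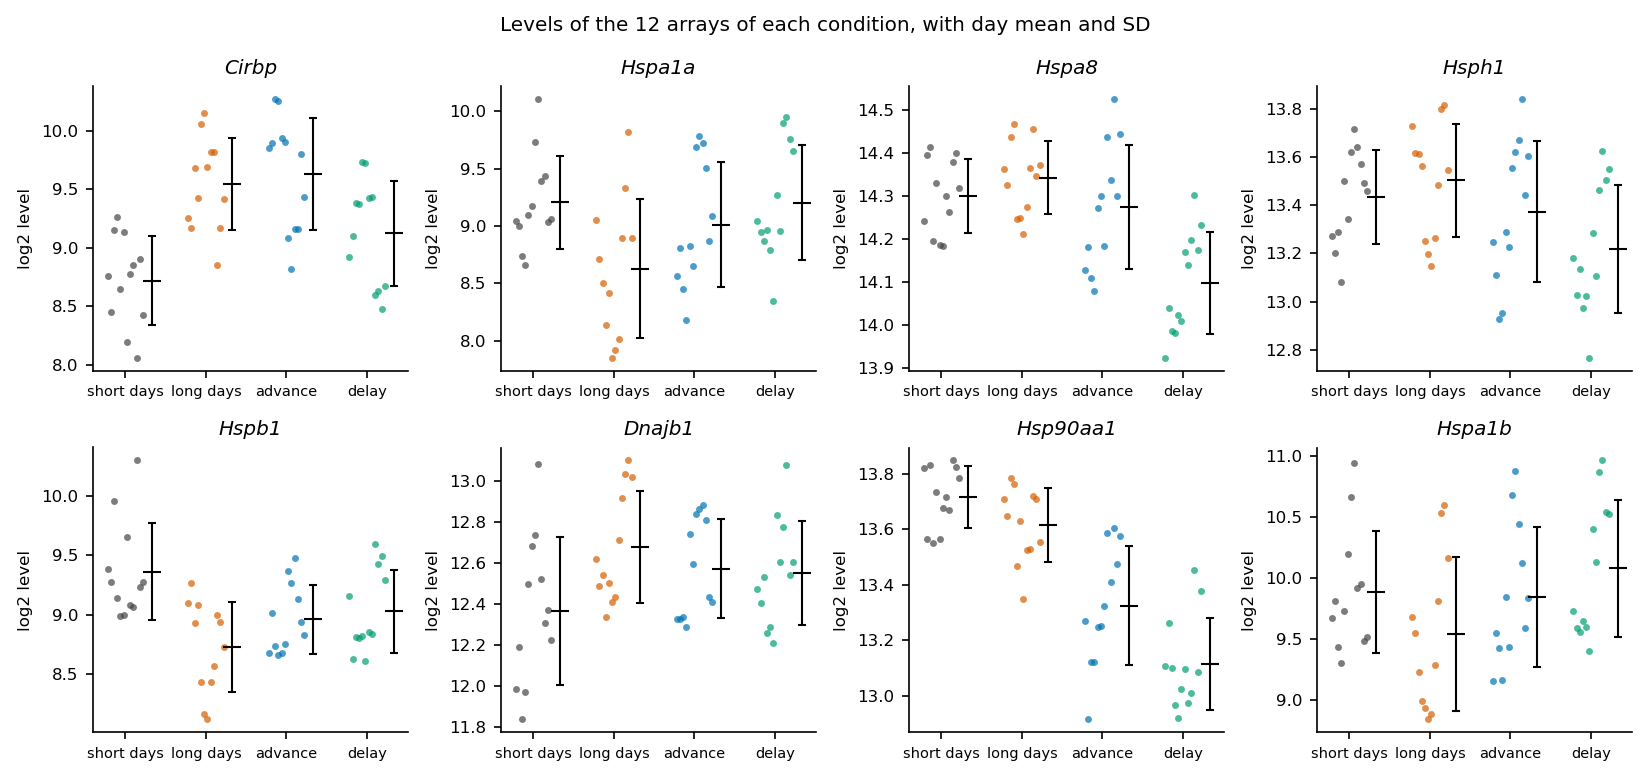
Log2 levels of the 12 arrays of each condition (points, vertical axes differing between panels), with the day mean (wide tick) and SD (bar) beside them. Cirbp is lowest under short days, Hspa1a and Hspb1 are lowest under long days, and every Hsp90aa1 value in delay lies below every short-day value.

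Across the 7 measured genes, those that passed the F test for variation over the day with their brightest probe sets were Hspa1a, Hsph1 and Dnajb1 in every condition, joined by Cirbp on the first long day. Variation passed in 3 of 7 under short days, where 8.91% of all genes passed, and in 3 of 7 under long days, against 1.63%. It passed in 4 of 7 in advance, against 2.58%, and in 4 of 7 in delay, against 1.52%. The day mean under long days passed in 4 of 7, with Cirbp and Dnajb1 higher and Hspa1a and Hspb1 lower, against 46.7% of all genes (17.6% higher and 29.1% lower). That share is near the background, and the median size of the difference was 0.309 over the 7 genes and 0.105 over all genes. The median difference itself was 0.04 over the 7 genes and −0.03 over all genes.

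Over the 24 group means, with the mean of each condition taken off, Pearson's r of Cirbp was −0.884 with Hspa1a, −0.888 with Hsph1, −0.778 with Hspb1, −0.735 with Hsp90aa1, −0.637 with Hspa8 and −0.618 with Dnajb1. Of these genes Hspb1, Hsp90aa1 and Hspa8 passed the F test for variation in no condition with the probe sets used here, and Cirbp did not under short or long days. Among the heat shock genes r was positive for every pair, from 0.294 for Hspb1 and Dnajb1 to 0.914 for Hspa1a and Hsph1. These are descriptions: each point is a pair of arrays, and all genes of a point share those arrays. In the group means, Cirbp was highest at ZT4 under short days and in advance and at ZT8 under long days and in delay, the groups in which Hspa1a was at or next to its lowest mean.

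The genes most like each member, by the same r over 24 group means, included other chaperone genes. For Hsph1 the closest was Ahsa1, an activator of HSP90 (r = 0.95), followed by Dhx29 (0.946) and Cacybp (0.945). For Dnajb1 it was Ahsa2, a relative of Ahsa1 (r = 0.972), followed by Ubap2l (0.952) and Snx16 (0.944). For Hspa1a, Hspa1b was followed by P4ha2 (0.942) and Atpsckmt (0.938). Hspa8 was followed most closely by Pcbp1 (0.897) and by Cct2 (0.897) and Cct7 (0.896), subunits of the cytosolic chaperonin, and Hsp90aa1 by Cct5 (0.906), Zhx3 (0.897) and Cct7 (0.895). Hspb1 was nearest to Arhgef19 (0.895), Amz2 (0.882) and Srrt (0.88), and Cirbp to Armcx5 (0.892), Arhgef15 (0.892) and Vrk1 (0.889).

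A 24 h cosine fitted to Hspa1a had its peak at ZT13.5 ± 0.79 h under short days, ZT20.2 ± 0.80 h under long days, ZT14.7 ± 0.47 h in advance and ZT17.9 ± 0.58 h in delay (SE). Its amplitude was 0.47, 0.70, 0.69 and 0.62 in the same order. For Hsph1 the peaks were at ZT14.3, 21.8, 15.6 and 17.9 h, and for Dnajb1 at ZT12.6, 18.1, 13.0 and 16.2 h. For Cirbp they were at ZT4.4 ± 1.7 h, ZT8.87 ± 1.1 h, ZT2.84 ± 0.55 h and ZT7.35 ± 0.33 h (SE). For all 4 genes the fitted peak came later by ZT under long days than it did under short ones, and later in delay than in advance; these differences were not tested on the peaks themselves.

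The difference in daily course between long and short days, matched by ZT, passed for Hspa1a (limma's adjusted p = 1.42e-05), Hsph1 (2.25e-04) and Dnajb1 (3.74e-05), 3 of 7 genes against 4.3% of all genes. For Cirbp the adjusted p was 0.241. The same arrays can also be matched by time from lights-off, an alternative chosen after seeing the data, or by clock time, since lights-on was at a clock time 4 h earlier under long days. Matched from lights-off, none of the 7 passed (adjusted p from 0.45 to 0.986) and 0.275% of all genes did. Matched by clock time, none of the 7 passed (adjusted p from 0.129 to 0.953) and 0.467% of all genes did, while Hspa1b did at 0.0219. A p that misses the threshold does not show that the courses were alike. Counted from lights-off, the highest Hspa1a and Dnajb1 means were at 4 h under short days, under long days and in advance. By clock time the Hspa1a cosine peaked at 20.5 h under short days and 23.2 h under long days, and that of Cirbp at 11.4 ± 1.7 h and 11.9 ± 1.1 h (SE).

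**Figure D3:**
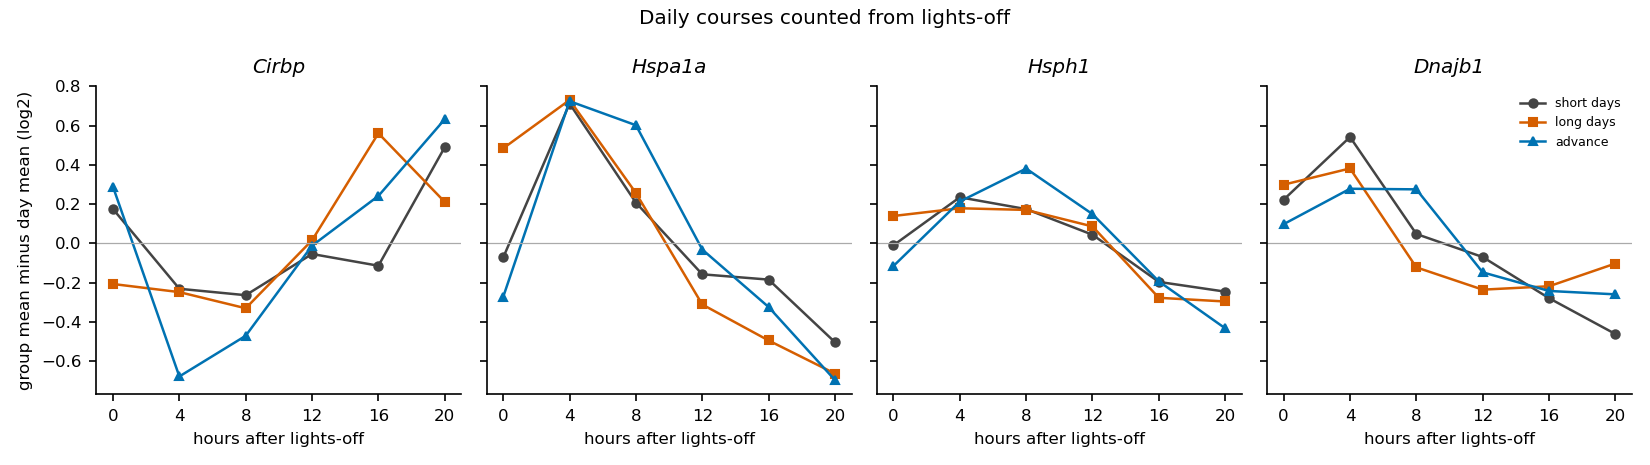
Group means of 2 arrays minus the mean of their condition (log2, vertical axis) against hours after lights-off, for 4 genes under short days, long days and advance. Delay is left out because most of its arrays are taken to precede the moved lights-off. The highest Hspa1a and Dnajb1 points of all 3 conditions lie at 4 h, and the lowest Cirbp points lie at 4 h or 8 h.

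On the first long day, the test for a different course in advance and under short days passed for none of the 7 genes (adjusted p from 0.558 to 0.759), where 0.308% of all genes passed. In delay the course differed for Hspa1a (limma's adjusted p = 0.00745) and Dnajb1 (0.00317), 2 of 7 against 1.84% of all genes, and Hsph1 lay just outside at 0.0594. At ZT12, Hspa1a was 0.81 lower in delay than under short days, and at ZT20 0.66 higher. At ZT8, taken to precede the added light, Hspa1a was at 8.57 in delay and 9.14 under short days. Dnajb1 differed there by −0.34. Light, age and the set of mice cannot be told apart in delay against short days. Advance and delay differed in course for Cirbp (0.029) and Hspa1a (0.0384), 2 of 7 against 0.726% of all genes. At ZT20 Cirbp was 1.04 higher in advance than in delay, and at ZT12 0.48 lower. Both of these last calls were lost without the 6 arrays with Gh or Prl above 10, at 0.247 and 0.163, and in many of the 24 fits without 1 array, 11 for Cirbp and 16 for Hspa1a.

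The day means of advance and delay, which share age, differed for 4 of 7 genes, against 24.1% of all genes. Cirbp was 0.51 ± 0.09 higher in advance (limma's adjusted p = 7.83e-05), Hspa8 0.18 ± 0.03 (1.96e-04), Hsph1 0.15 ± 0.04 (0.0065) and Hsp90aa1 0.21 ± 0.05 (0.00297; errors are SE). Among all genes 10.3% were higher and 13.8% lower. The Hspa8 and Hsph1 calls were lost under a repeated quantile normalization, at adjusted p-values of 0.438 and 0.277. Those of Hsph1 and Hsp90aa1 were lost with the actin difference as a covariate, at 0.107 and 0.161. Against short days, 5 of 7 genes passed in advance, 2 higher and 3 lower (51.4% of all genes, 22.2% higher and 29.3% lower). In delay 6 of 7 passed, 2 higher and 4 lower (49.8% of all genes, 23.8% higher and 26% lower). These last contrasts share the short-day arrays, and light, age and the set of mice cannot be told apart in them. The delay arrays of ZT0 and ZT8 are taken to precede the added light, though the labels give no date of sampling. There Hsp90aa1 differed from short days by −0.51 at ZT0 and −0.68 at ZT8, and Hspa8 by −0.34 at ZT0. The cause of these differences was not tested.

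Contrasts that take off each condition's level before the extra light gave no call. Early light was read as the step from ZT16 to ZT20, in advance less the same step in the short-day mice. It passed for 0 of 7 in limma, where 0.22% of all genes passed, 0.181% higher and 0.0385% lower. No member had an unadjusted p under 0.05 there, and the smallest was that of Dnajb1 (−0.31 ± 0.16 SE, unadjusted p = 0.0672). Evening light was read as the mean of ZT12 and ZT16 over the mean of the earlier times, in delay less the short-day value. It passed for 0 of 7, against 6.11% of all genes, 5.16% higher and 0.951% lower. Hspa8 alone had an unadjusted p under 0.05 (0.22 ± 0.07 SE, unadjusted p = 0.00562, adjusted p = 0.0624), and it passed when 1 of 4 short-day arrays was left out (replicate 1 of ZT0 or replicate 2 of ZT4, ZT8 or ZT16), with 0.0192 as the lowest adjusted value.

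The wider chaperone and cold-response genes were taken from lists that hold 72 further genes, of which 64 were measured. Variation over the day passed in 8 of 64 under short days, 9 under long days, 12 in advance and 7 in delay, where 8.91%, 1.63%, 2.58% and 1.52% of all genes passed. Ahsa2, Hspa1b, the J-domain gene Dnaja4 and Chordc1, a cochaperone of HSP90, were among them in every condition. Chordc1 was highest at ZT12 under short days (12.78) and in advance (12.90), at ZT16 in delay (12.85) and at ZT20 under long days (12.92), the same groups as Hspa1a. Ahsa2 was highest in those same groups, at 11.88, 11.69, 11.76 and 11.80. Dnaja4 was too, at 10.53, 10.66, 10.56 and 10.66. Ahsa1 passed under long days, in advance and in delay, and its adjusted p was lowest in advance (0.0022). Bag3, an exchange factor of HSP70, and Fkbp4, a cochaperone of HSP90, passed under long days (0.018 and 0.0176) and in advance (0.0022 and 0.0345). The course of long against short days, matched by ZT, passed for 8 of the 64 (4.3% of all genes), among them Ahsa2 (4.22e-08), Chordc1 (4.16e-05) and Dnaja4 (4.4e-05). In delay against short days it passed for 3 (1.84% of all genes), which were Ahsa2 (2.04e-05), Hspa1b (2.32e-04) and Chordc1 (0.024). None of the 4 measured heat shock factor genes passed for variation in any condition, and none of the 7 measured cold shock domain genes and Rbm3 targets did, against those same shares of all genes.

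Of these 64 genes, 41 passed for long minus short days, 19 higher and 22 lower, where 46.7% of all genes passed (17.6% higher and 29.1% lower), with a median difference of −0.04 beside −0.03 over all genes. Hspb6, another small heat shock protein, fell most by p: its day mean was 7.87 under short days and 6.86 under long days, a difference of −1.02 ± 0.06 (SE, limma's adjusted p = 1.26e-14). Bag2, an inhibitor of the HSP70 cochaperone CHIP, fell by 0.53 (adjusted p = 5.3e-12). Chordc1 rose by 0.48, Dnajb4 by 0.36 and Dnaja1 by 0.23, and Hsf2, a heat shock factor gene, by 0.56, from 7.70 to 8.25. All 9 measured HSP70 cochaperones of the list passed, 7 lower and 2 higher, beside those shares of 46.7%, 29.1% lower and 17.6% higher, among them Bag1 and St13, which fell by 0.25 and 0.22. The J-domain genes Dnajb11 and Dnajb14 rose by 0.23 and 0.21, Dnajc7 fell by 0.32, and the cold shock domain gene Carhsp1 rose by 0.22.

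Other state genes moved over the same day. Of 13 listed clock genes, variation passed in 12 under short days, 10 under long days, 12 in advance and 11 in delay. Of 9 immediate early genes, it passed in 4, 5, 1 and 0, and of 6 glucocorticoid-responsive genes in 4, 3, 4 and 5, beside 8.91%, 1.63%, 2.58% and 1.52% of all genes in the same order. The mean level of 5 measured pars tuberalis thyrotroph markers was 10.25 under short days (range 9.86 to 10.78), 11.36 under long days (10.98 to 11.74), 11.04 in advance (10.51 to 11.85) and 10.69 in delay (10.40 to 10.88), so it was lowest under short days, as Cirbp was. The 5 markers include Tshb, and their mean was highest under long days, whereas the day mean of Cirbp was highest in advance. The part of the state genes and markers in the results for the temperature-responsive genes was not tested.

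**Figure D4:**
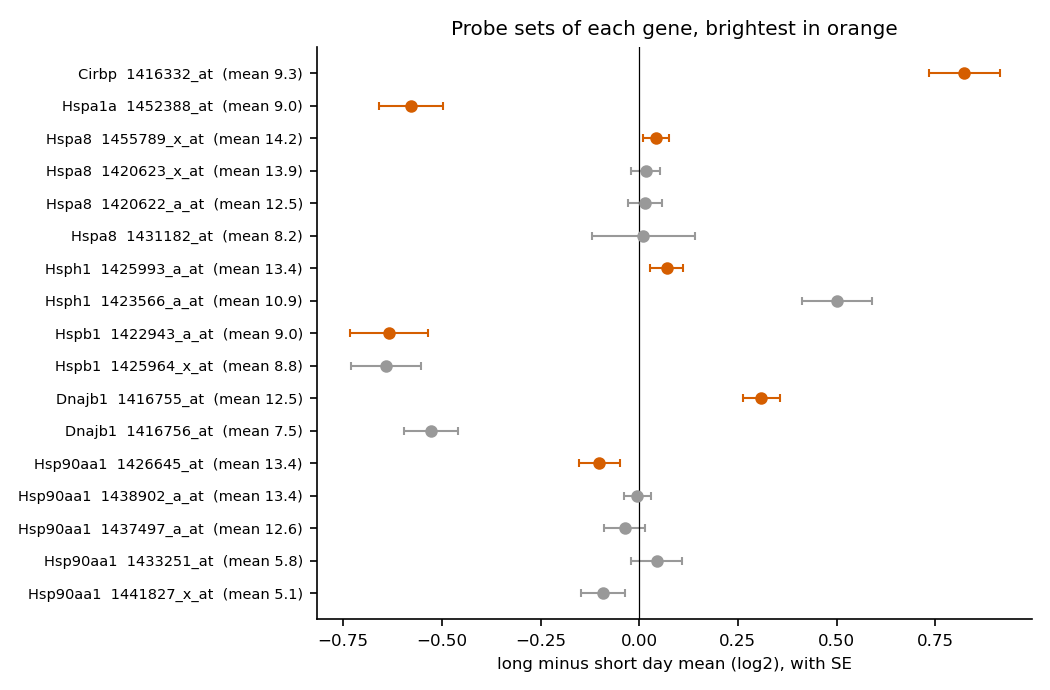
Difference between the day means of long and short days (log2, horizontal axis) with its SE for each probe set of the 7 measured genes, the brightest in orange and others in grey. The probe sets of Hspb1 agree, those of Dnajb1 lie on opposite sides of 0, and the dimmer Hsph1 probe set lies at 0.50 against 0.07 for the bright one.

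The other probe sets of a gene followed the brightest to different degrees over the 48 arrays. The second Hspb1 probe set had a Pearson r of 0.939 with the first, and Hspa8 had 0.905 and 0.76 for its next brightest. The dimmest Hspa8 probe set had an r of 0.05. For Dnajb1 r was 0.334 and for Hsph1 0.81. Those of Hsp90aa1 had r of 0.936 and 0.733 for the bright ones and −0.326 and 0.08 for the dim ones. Cirbp and Hspa1a have 1 probe set each, so their values have no such check.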

How the data were processed

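RNA of tissue labelled as pars tuberalis was hybridized to 48 Affymetrix arrays, each 1 pool. The deposited values are log2 probe set levels made by the authors with RMA in R 2.8.0, per the submitters' processing notes, so background correction, normalization and probe summary came before deposit and were not repeated. Of 45101 probe sets, 34958 carry 1 gene symbol, 932 several and 9211 none. Each gene was taken from its single-symbol probe set with the highest mean.

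A mean for each of 24 groups of 2 arrays was fitted to 18194 genes with limma 3.58.1 in R 4.3.3 (24 residual degrees of freedom, empirical Bayes with a trend, two-sided tests). The Benjamini-Hochberg adjustment ran over all 18194 genes, with a threshold of 0.05. Variation over the day is an F test over the 6 times, and a difference in course is the F test of the interaction. The fit was tested on simulated data. Amplitudes and peaks come from a 24 h cosine per condition. For arrays, their number limits the precision.

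The 8 genes and all lists were chosen with earlier results of these data known. Beside these genes, the text names the 12 listed pathway genes with the smallest p for long minus short days, the 6 with the smallest p for variation in each condition, the 3 genes most like each member, and Hspa1b. Alternatives were the probe set, a filter at a mean of 6, the trend, a repeated normalization, the replicate number as a block, RNA quality, arrays left out, the cosine, and the matching of times.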

Additional observations from a re-analysis of the deposited data

Results flagged for a closer look

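The results below stand out because the daily course of a gene differed between conditions by a test of the difference itself. Between long and short days, matched by ZT, this held for Hspa1a (limma's adjusted p = 1.42e-05), Hsph1 (0.000225) and Dnajb1 (3.74e-05). None of these genes passed when matched by clock time (adjusted p from 0.129 to 0.34) or from lights-off (0.45 to 0.949). Between delay and short days, where age and the set of mice differed as well, the course differed for Hspa1a (0.00745) and Dnajb1 (0.00317). Between advance and delay it differed for Cirbp (0.029) and Hspa1a (0.0384), and both of these calls were lost without the arrays with Gh or Prl above 10.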

How the results depend on the processing

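With 2 arrays per time, single arrays could move calls near the threshold. The labels do not say that a replicate number marks a shared repeat. Over 15 pairs of times each, the correlation of same-numbered deviations had a median of 0.0328 (−0.183 to 0.491) under short days, 0.238 (0.0869 to 0.401) under long days, 0.0698 (−0.183 to 0.201) in advance and 0.273 (−0.187 to 0.481) in delay, so not every pair exceeded 0.1 in any condition. With the replicate block, over all arrays or in each condition, evening light passed for 1 of 7 genes (Hspa8, adjusted p = 0.0461 and 0.0395) in place of 0. The block in each condition gained 4 calls among the 7 genes, with that one included, and lost 3. Those lost were Hspa1a in advance minus short days (limma's adjusted p = 0.263), Hsph1 in advance minus delay (0.272) and Hspb1 in delay minus short days (0.152). Among the 7 genes, advance minus delay passed for 2 in place of 4 both after a repeated quantile normalization and with the actin difference as a covariate. The course of advance against delay passed for 1 without the eBayes trend and for 0 without the 6 arrays with Gh or Prl above 10. With the second brightest probe sets the course of delay against short days passed for 1. The cosine raised the number that varied under long days to 5. It also added Cirbp under short days (adjusted p = 0.0449), Hspa8 and Hsp90aa1 in advance (0.0119 and 0.00655) and Hspa8 in delay (0.0187). With the cosine 16.8%, 2.22%, 3.04% and 3.03% of all genes passed under short days, long days, advance and delay. Matched by clock time or by lights-off, the number with a different course under long days was 0. The cause of these changes was not tested.

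By probe set, these differences changed sign. On the other probe set the 3 of Dnajb1 passed, as did that of Hsph1 in advance minus short days (limma's adjusted p = 5.33e-04). That of Hspa8 in delay minus short days passed too (0.0361), and the remaining ones did not pass. For the dimmer Dnajb1 probe set, long, advance and delay minus short days gave −0.527, −0.355 and −0.319. For the dimmer Hsph1 probe set, advance and delay minus short days gave 0.373 and 0.11. For the dimmest Hspa8 probe set, advance minus delay gave −0.09 and delay minus short days 0.332. For the Hsp90aa1 probe set with a mean of 5.80, advance minus delay, advance minus short days and delay minus short days gave −0.0293, 0.111 and 0.14. For that with a mean of 5.06, below the first quartile, advance minus delay gave −0.108 and delay minus short days 0.0649.

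Leaving out 1 array at a time, evening light passed for 0 to 1 of 7 genes, variation under short days for 3 to 5 and the course of advance against delay for 0 to 2. Hspa1a in advance minus short days kept its call only without replicate 2 of short-day ZT4, replicate 1 of short-day ZT12, replicate 1 of advance ZT4, ZT8 or ZT16, or replicate 2 of advance ZT0, ZT12 or ZT20. The calls of Cirbp, Hspa1a, Hspb1 and Dnajb1 in long minus short days held in all 24 such fits. Calls were gained for Hsph1 in the course of delay against short days (without replicate 2 of short-day ZT4 or ZT8, replicate 1 of short-day ZT16 or replicate 1 of delay ZT8), for Hspb1 and Cirbp in the course of long against short days (without replicate 1 of short-day ZT16, 0.0187, and replicate 2 of long-day ZT16, 0.0482), for Hspa8 and Hsp90aa1 in variation in advance (without replicate 1 of ZT16 or either array of ZT12, and without replicate 1 of ZT0) and for Hspa1a in advance minus delay (without replicate 2 of delay ZT8, 0.0409).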
